A study of Mus musculus with 6 samples.

Results

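The genes that build, store and break down triglyceride were compared between mammary glands of wild-type mice and of mice lacking caveolin-3. The set held 44 genes named for these steps, and 41 of them had a probe set annotated to that gene alone, among 18193 genes named on the array. Gyk, Acsl1 and Plin1 were not analysed here. By step, 11 measured genes belonged to fatty acid synthesis, 20 of 22 listed genes to esterification, 2 of 3 to the lipid droplet, 6 to lipolysis and 2 to fatty acid uptake. Where a gene had several probe sets, the brightest by its mean over the 6 arrays stands for it. The 41 genes had 87 probe sets in all, and 26 genes had more than 1.

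Fat cells make fatty acids from citrate and acetate in the cytosol, join them to a glycerol backbone in the endoplasmic reticulum by successive acylations, and keep the resulting triglyceride in a droplet coated with proteins. Lipases remove the fatty acids again, 1 at a time, when other tissues need fuel. In the virgin mammary gland the fat pad surrounds the ducts and holds most of the gland's triglyceride, while epithelial cells take up and make fat for milk in pregnancy and lactation.

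The glands came from 4-month-old virgin females on the FVB/N background, untreated, with 3 glands in the WT group and 3 in the Cav-3KO group, and no other allele or agent was named. Caveolin-3 coats the caveolae of muscle fibres. Whether the 3 glands of a group came from 3 separate mice is not in the labels, so the p-values measure only the spread between these samples, which may be technical. The sources used here do not give the deletion's design, the part of the gland taken or the stage of the oestrous cycle. RNA of each whole gland was read on 1 single-channel Affymetrix array, and values are log2 signals after RMA. Because RMA gives every array nearly the same distribution of values, the differences are relative to the other transcripts of the gland. Values of different probe sets are not on a common scale, so no gene's level is set against another's; for related enzymes the difference between 2 sets is used only for its change between genotypes. In whole-gland RNA, fewer cells of a type and less RNA per cell cannot be told apart.

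Array medians lay between 5.77 and 5.8, and correlations over all probe sets were 0.990 to 0.995 within a genotype and 0.977 to 0.987 between genotypes. The Cav3 probe set read 4.85 ± 0.15 (SD, n = 3) in WT and 4.77 ± 0.06 (SD, n = 3) in Cav-3KO glands, a difference of -0.08 ± 0.10 (SE; limma, adjusted p = 0.679). It does not check the genotypes, since its place relative to the deleted part was not given. Arrays also differed in markers of other tissue. The mean of 13 skeletal muscle genes ranged from 5.92 to 9.08 over the WT arrays and from 5.41 to 7.41 over the Cav-3KO arrays, and 0 of the 13 passed in limma (1 at an unadjusted p under 0.05).

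Of the 41 measured genes, 25 fell and 1 rose in the Cav-3KO glands (limma, adjusted p under 0.05). That is 61.0% lower and 2.44% higher. Over all 18193 genes on the array, 8.51% fell and 7.65% rose. The median log2 difference, knockout minus wild type, was -0.71 over the 41 genes and -0.01 over all genes. In 29 of the 41, all 3 Cav-3KO values lay below all 3 WT values, and in 2 they lay above. The same separation held for 19.8% of all genes in the lower direction and 18.5% in the higher. All 25 genes that fell were among the 29. Without Cav-3KO array 3 the number that fell was 14, and without WT array 2 it was 16. With each other array left out it was 17 to 23, and Acsl4 rose in all 6 fits. Calls over the whole array also dropped: 606 genes fell without Cav-3KO array 3 and 951 without WT array 2, against 1549 with every array. The fall reached each step: 10 of 11 genes of fatty acid synthesis, 9 of 20 of esterification, 1 of 2 droplet genes, 4 of 6 of lipolysis and 1 of 2 of uptake. The step medians were -0.85, -0.57, -0.55, -0.72 and -0.37 in the same order.

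**Figure D1:**
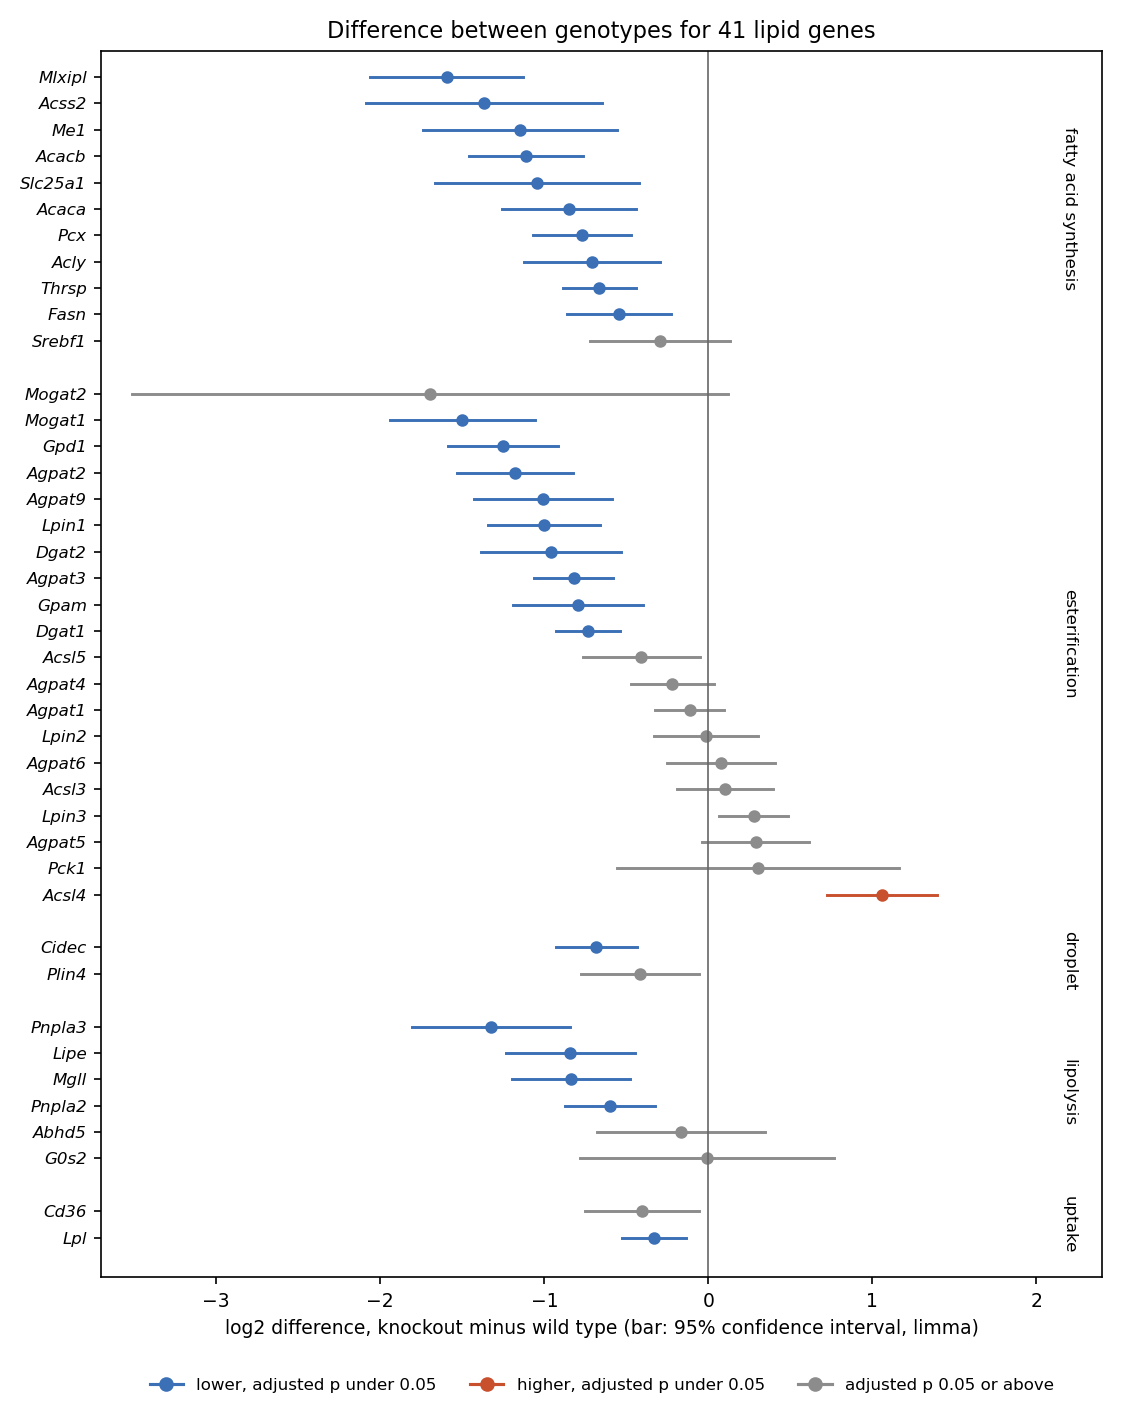
Log2 difference, Cav-3KO minus WT, of each measured gene (x axis), grouped by step (y axis), with 95% intervals from limma over 3 against 3 arrays; colour marks genes that fell, rose or did not pass an adjusted p under 0.05. Of 41 genes 25 lie to the left as fallen and Acsl4 alone to the right as risen.

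The white adipocyte markers moved the same way. Of 10 measured markers 6 fell and 0 rose. The mean of their log2 values was 10.50 to 11.05 in WT and 9.75 to 10.27 in Cav-3KO glands. Adipoq, the fat cell hormone adiponectin, read 13.00 to 13.25 in WT and 12.64 to 12.77 in Cav-3KO glands, and Pparg, the nuclear receptor of fat cell identity, fell by 1.11 on the log2 scale. Brown adipocyte markers had means of 6.95 to 8.13 in WT and 5.94 to 6.05 in Cav-3KO glands, and 3 of 9 fell, among them Ucp1. Epithelial markers moved the other way: 10 of 12 luminal markers rose, with list means of 8.66 to 9.16 in WT and 10.06 to 10.23 in Cav-3KO, and 8 of 9 basal markers rose. Other lists also held lower genes: 3 of 4 B cell markers fell (median -0.71), 2 of 4 T cell markers (median -0.51), 2 of 5 endothelial, 1 of 6 macrophage and 1 of 6 fibroblast markers, and 0 of these rose at the adjusted threshold in limma (1 fibroblast marker at an unadjusted p under 0.05). The part of the gland's cell makeup in the changes given here was not tested. The adipocyte list means did not overlap between genotypes, so as a covariate each shared most of the genotype term. With either list as covariate limma called 0 members at the adjusted threshold in either direction. Over all genes it called 5 lower and 1 higher with the brown list, and 3 lower and 9 higher with the white list. The share of all genes at an unadjusted p under 0.05 is not given for these fits, so the next counts have no background beside them. At an unadjusted p under 0.05, 21 members were lower and 2 higher with the brown list, and 15 lower and 2 higher with the white list. The median differences were then -0.72 and -0.69. All 26 called members kept their direction with either list, while single genes moved by over 1.5 times. Pnpla2, Lipe and Mgll came nearer 0 with both lists, and Fasn (-0.27), Acss2 (-0.72) and Acsl4 (0.59) with the white list. Gpam moved further from 0 with both, and Acly and Lpin1 with the brown list.

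**Figure D2:**
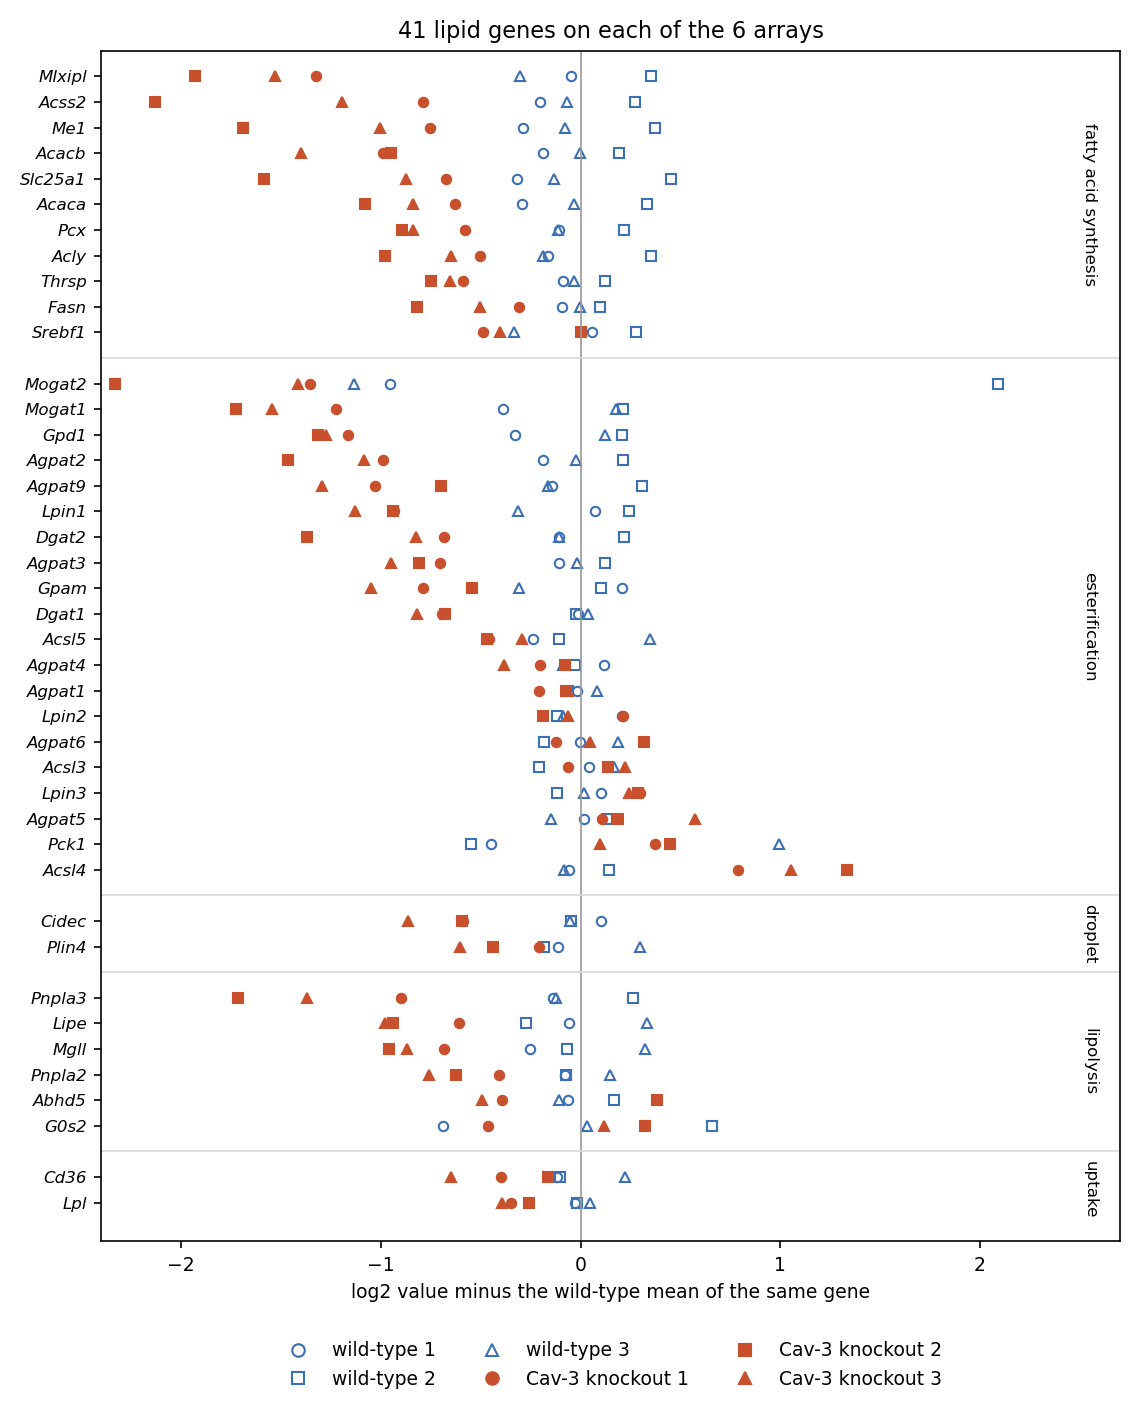
Log2 value of each gene (y axis, by step) minus that gene's WT mean (x axis), with 1 symbol per array: open blue for WT and filled red for Cav-3KO, and circle, square and triangle for arrays 1, 2 and 3. Among the 25 genes that fell, WT array 2 held the highest WT value in 18 and Cav-3KO array 2 the lowest Cav-3KO value in 15.

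Fatty acid synthesis had the highest share of fallen genes of the 5 steps, 10 of 11, and the remaining gene, Srebf1, did not pass. The list mean was 12.65, 13.08 and 12.69 in WT arrays 1 to 3 and 12.11, 11.64 and 11.91 in Cav-3KO arrays 1 to 3, and array values are given in this order throughout. Differences are given with their standard error and the limma p adjusted over all 45037 tested probe sets.

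The steps that supply cytosolic carbon all fell. Slc25a1, the carrier that brings citrate out of the mitochondrion, read 12.88, 13.65 and 13.06 in WT and 12.52, 11.61 and 12.32 in Cav-3KO glands, 2.06-fold lower (-1.04 ± 0.27, adjusted p = 0.0431). Acly, which splits citrate into acetyl-CoA and oxaloacetate, read 12.61, 13.12 and 12.58 against 12.27, 11.79 and 12.12, 1.64-fold lower (-0.71 ± 0.18, adjusted p = 0.0398). WT array 2 and Cav-3KO array 2 stood at the far ends for both. The Acly probe set may match several transcripts. A nearly as bright Acly set differed by -0.90 and did not pass (adjusted p = 0.058). The mean of all Acly sets differed by -0.72 and did not pass either (adjusted p = 0.0631). That mean takes in dim sets, among them a set reading 2.03 in WT and 2.05 in Cav-3KO glands. A further Acly set, less bright than those 2, differed by -1.28 and passed in limma (adjusted p = 0.0395). Acss2, which makes acetyl-CoA from acetate, read 11.27, 11.74 and 11.40 against 10.68, 9.34 and 10.28, 2.59-fold lower (-1.37 ± 0.31, adjusted p = 0.028). Pcx, which refills oxaloacetate from pyruvate in the mitochondrion, read 13.12, 13.44 and 13.11 against 12.65, 12.33 and 12.38, 1.71-fold lower (-0.77 ± 0.13, adjusted p = 0.0106). The array carries 4 further probe sets against Pcx as controls, which were left out of the fit. They were lower in Cav-3KO by 0.47 to 0.94 on the log2 scale, and in each of the 4 the groups did not overlap. Me1, the malic enzyme that supplies NADPH for synthesis, read 13.10, 13.76 and 13.31 against 12.64, 11.70 and 12.39, 2.22-fold lower (-1.15 ± 0.26, adjusted p = 0.0265).

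Both acetyl-CoA carboxylases, which make malonyl-CoA, were lower. Acaca, the cytosolic form that feeds synthesis, read 12.94, 13.57 and 13.21 in WT and 12.61, 12.16 and 12.40 in Cav-3KO glands, 1.80-fold lower (-0.85 ± 0.18, adjusted p = 0.0214). Acacb, the form at the mitochondrial surface whose product restrains fatty acid oxidation, read 12.00, 12.38 and 12.19 against 11.20, 11.24 and 10.79, 2.16-fold lower (-1.11 ± 0.15, adjusted p = 0.00507). A second, dimmer Acacb probe set differed by -0.18 (adjusted p = 0.245). Fasn, the synthase that builds palmitate from malonyl-CoA, read 13.79, 13.97 and 13.88 against 13.57, 13.06 and 13.38, 1.46-fold lower (-0.54 ± 0.14, 95% interval -0.86 to -0.23, adjusted p = 0.0398).

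Of the 3 regulators, 2 fell and 1 did not pass. Mlxipl (ChREBP), the carbohydrate-responsive activator of these enzymes, read 11.54, 11.95 and 11.29 in WT and 10.27, 9.66 and 10.06 in Cav-3KO glands, 3.02-fold lower (-1.6 ± 0.20, 95% interval -2.06 to -1.13, adjusted p = 0.00402). The lowest WT value was more than 1 log2 unit above the highest Cav-3KO value. Thrsp (Spot 14), a small nuclear protein of lipogenic tissue, read 13.61, 13.82 and 13.66 against 13.11, 12.95 and 13.04, 1.58-fold lower (-0.66 ± 0.10, adjusted p = 0.00613). Srebf1, the sterol-regulated activator of the same enzymes, read 12.26, 12.49 and 11.87 against 11.72, 12.21 and 11.81. Its groups overlapped, and the difference of -0.30 ± 0.18 had an interval of -0.72 to 0.13 (adjusted p = 0.354), which holds a fall as large as that of Thrsp. The array reads its transcript and not the cleavage that activates the protein.

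The calls in this step were not equally firm. Mlxipl, Thrsp, Acacb and Pcx passed with each of the 6 arrays left out in turn. Fasn, Acly and Slc25a1 passed only without Cav-3KO array 1, and in their other 5 fits the adjusted p ran from 0.0524 to 0.118, 0.066 to 0.103 and 0.0573 to 0.114. Acss2 lost its call without Cav-3KO array 3 or any WT array (0.0588 to 0.0895), and Acaca and Me1 without Cav-3KO array 3, WT array 2 or WT array 3 (0.0516 to 0.0728 and 0.0717 to 0.0784).

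To show the DNA ahead of these genes, the 250 bases before the start in the RefSeq table (GRCm38.p6) are printed for Fasn, the central enzyme, for the regulators Mlxipl and Thrsp, and for Acsl4, the 1 gene of the set that rose. Capitals mark matches, on either strand, to 3 motifs: the E-box CACGTG, the NF-Y box CCAAT and the GC box GGGCGG. Each sequence runs 5′ to 3′ on the gene's strand and ends just before the start. In Fasn all capitals are NF-Y boxes, and a pair of them overlap. In Mlxipl they are an E-box, an NF-Y box and 2 GC boxes, in Thrsp 2 NF-Y boxes, and in Acsl4 2 overlapping GC boxes.
Fasn, chr11:120824548-120824797, minus strand: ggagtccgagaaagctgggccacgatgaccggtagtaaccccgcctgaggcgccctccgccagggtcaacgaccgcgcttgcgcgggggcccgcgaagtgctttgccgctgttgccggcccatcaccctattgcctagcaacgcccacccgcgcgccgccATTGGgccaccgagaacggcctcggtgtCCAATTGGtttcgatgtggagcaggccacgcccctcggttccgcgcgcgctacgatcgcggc
Mlxipl, chr5:135089640-135089889, plus strand: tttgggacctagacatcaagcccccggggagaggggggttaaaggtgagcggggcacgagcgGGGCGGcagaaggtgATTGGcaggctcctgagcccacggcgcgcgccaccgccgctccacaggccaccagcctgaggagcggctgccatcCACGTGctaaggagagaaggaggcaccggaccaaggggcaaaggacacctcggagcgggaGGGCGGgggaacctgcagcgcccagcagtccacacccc
Thrsp, chr7:97417551-97417800, minus strand: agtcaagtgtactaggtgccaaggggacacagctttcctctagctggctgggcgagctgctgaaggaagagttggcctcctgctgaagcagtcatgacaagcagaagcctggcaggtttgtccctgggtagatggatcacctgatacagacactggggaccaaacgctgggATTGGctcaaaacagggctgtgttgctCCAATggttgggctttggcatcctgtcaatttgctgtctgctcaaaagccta
Acsl4, chrX:142390536-142390785, minus strand: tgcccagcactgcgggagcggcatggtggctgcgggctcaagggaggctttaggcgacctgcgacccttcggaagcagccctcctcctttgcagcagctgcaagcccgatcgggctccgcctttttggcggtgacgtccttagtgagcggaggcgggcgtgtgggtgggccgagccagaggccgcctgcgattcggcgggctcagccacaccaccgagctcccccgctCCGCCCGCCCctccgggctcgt

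Windows were found for 34 of the 41 genes, 47 windows in all, of which 28 belonged to 21 genes that fell. The E-box was in 5 of those 28 windows (17.9%), those of Lipe, Mgll, Mlxipl, Pcx and Slc25a1, against 6.02% of all 32851 windows in the table. It was in 1 of the 19 windows of genes that did not fall. The NF-Y box was in 10 of 28 (35.7%) against 33.9% of all windows, and the GC box in 13 of 28 (46.4%) against 32.7%. Both had a higher share in the 19 windows of genes that did not fall: 9 (47.4%) held the NF-Y box and 13 (68.4%) the GC box. The sterol element TCACNCCAC was in 1 of 28, a second Mlxipl window, against 1.05% of all windows. The direct repeat DR1, a textbook form of the PPAR-RXR element, was in 0 of 28 and in 0.0335% of all windows. A match is a description of the letters, several windows belong to 1 gene, and these shares were not tested.

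In esterification 9 of 20 genes fell, 1 rose and 10 did not pass. The backbone enters as glycerol 3-phosphate. Gpd1, which makes it from a glycolytic intermediate, read 12.49, 13.03 and 12.95 in WT and 11.66, 11.50 and 11.55 in Cav-3KO glands, 2.38-fold lower (-1.25 ± 0.15, adjusted p = 0.00309). Pck1, which serves glyceroneogenesis in fat, read 10.10, 9.99 and 11.54 against 10.91, 10.99 and 10.64. WT array 3 stood above every other array, and the difference of 0.30 ± 0.37 did not pass (interval -0.56 to 1.17, adjusted p = 0.663). Without that array the difference was 0.80 and passed as higher (adjusted p = 0.0246).

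The first acylation is made by glycerol-3-phosphate acyltransferases. Gpam, the mitochondrial form, read 12.18, 12.08 and 11.67 in WT and 11.19, 11.43 and 10.93 in Cav-3KO glands, 1.73-fold lower (-0.79 ± 0.17, adjusted p = 0.0241). Agpat9 (now Gpat3), a form of the endoplasmic reticulum, read 11.13, 11.58 and 11.11 against 10.24, 10.57 and 9.98, 2.01-fold lower (-1.01 ± 0.18, adjusted p = 0.0132). Agpat6 (now Gpat4), the other form of that membrane, spanned 9.20 to 9.57 in WT and 9.26 to 9.70 in Cav-3KO glands. Its difference was 0.08 ± 0.14, with an interval of -0.25 to 0.41 that leaves out a fall as large as that of either relative.

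The second acylation, to phosphatidic acid, is made by the 1-acylglycerol-3-phosphate acyltransferases. Agpat2, the form whose loss causes congenital lipodystrophy in people, read 12.37, 12.77 and 12.54 in WT and 11.57, 11.09 and 11.47 in Cav-3KO glands, 2.26-fold lower (-1.18 ± 0.15, adjusted p = 0.00444). Agpat3, a family member also active on other lysophospholipids, read 9.69, 9.92 and 9.78 against 9.09, 8.99 and 8.85, 1.77-fold lower (-0.82 ± 0.10, adjusted p = 0.00409). The other members did not pass. The intervals were -0.32 to 0.09 for Agpat1, the broadly expressed form, -0.47 to 0.03 for Agpat4 and -0.04 to 0.62 for Agpat5.

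The lipins remove the phosphate to give diacylglycerol. Lpin1, the form of fat and muscle, read 11.97, 12.15 and 11.59 in WT and 10.97, 10.96 and 10.77 in Cav-3KO glands, 2.0-fold lower (-1.0 ± 0.15, adjusted p = 0.00663). Lpin2 differed by -0.01 ± 0.14 (interval -0.33 to 0.30). Lpin3 read 6.17, 5.96 and 6.09 against 6.37, 6.36 and 6.32. Its Cav-3KO values all lay above its WT values, by a difference of 0.28 ± 0.09 that did not pass (adjusted p = 0.0897).

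The last acylation closes the molecule. Dgat1, which esterifies diacylglycerol made or recycled in the endoplasmic reticulum, read 12.56, 12.55 and 12.61 in WT and 11.88, 11.89 and 11.75 in Cav-3KO glands, 1.66-fold lower (-0.73 ± 0.08, adjusted p = 0.00304). That probe set may match several transcripts, and the other Dgat1 set differed by -0.02 (adjusted p = 0.938). Dgat2, which favours newly made fatty acids, read 13.44, 13.76 and 13.44 against 12.87, 12.18 and 12.72, 1.94-fold lower (-0.96 ± 0.19, adjusted p = 0.0165), and its second set was also lower. Mogat1, which acylates monoacylglycerol, read 8.70, 9.30 and 9.26 against 7.86, 7.36 and 7.54, 2.83-fold lower (-1.50 ± 0.19, adjusted p = 0.00403). Mogat2, the monoacylglycerol acyltransferase known from the intestine, read 7.44, 10.49 and 7.26 against 7.05, 6.07 and 6.98. WT array 2 alone stood far above the rest, and the difference of -1.70 ± 0.78 did not pass (adjusted p = 0.209). Without that array it was -0.65 (adjusted p = 0.237).

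Acyl-CoA synthetases activate fatty acids for all these steps, and the single member that rose was one of them. Acsl4, the form that prefers arachidonate, read 7.93, 8.14 and 7.91 in WT and 8.78, 9.33 and 9.05 in Cav-3KO glands, 2.08-fold higher (1.06 ± 0.15, interval 0.72 to 1.4, adjusted p = 0.00535). All 3 of its probe sets were higher, by 1.06, 1.26 and 1.69, and the call held with each array left out. Acsl3, a form found on nascent droplets, differed by 0.10 ± 0.13. Acsl5, a form of the mitochondrial and reticulum membranes, read 10.77, 10.90 and 11.36 against 10.55, 10.54 and 10.72. Its groups did not overlap, and the difference of -0.41 ± 0.15 did not pass (adjusted p = 0.131).

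How far related enzymes moved was also described within each array, as the difference between 2 probe sets and its change between genotypes. For Lpin1 minus Lpin2 it was 3.78 ± 0.32 (SD, n = 3) in WT and 2.79 ± 0.21 (SD, n = 3) in Cav-3KO glands, a change of -0.99. Agpat6 minus Agpat9 changed by 1.09 and Acsl4 minus Acsl5 by 1.47, each without overlap. Among pairs in which both genes fell, Pnpla2 minus Pnpla3 changed by 0.73 and Agpat2 minus Agpat3 by -0.36, each also without overlap. Gpam minus Agpat9 changed by 0.21, Dgat1 minus Dgat2 by 0.23 and Acaca minus Acacb by 0.26, each with overlapping groups. These values are a description: a two-sided exact permutation test of 3 against 3 arrays cannot go below 0.1, so no pair of the 23 computed could pass, and neither a difference nor a likeness between relatives is shown by them. The value also depends on how each probe set responds.

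**Figure D3:**
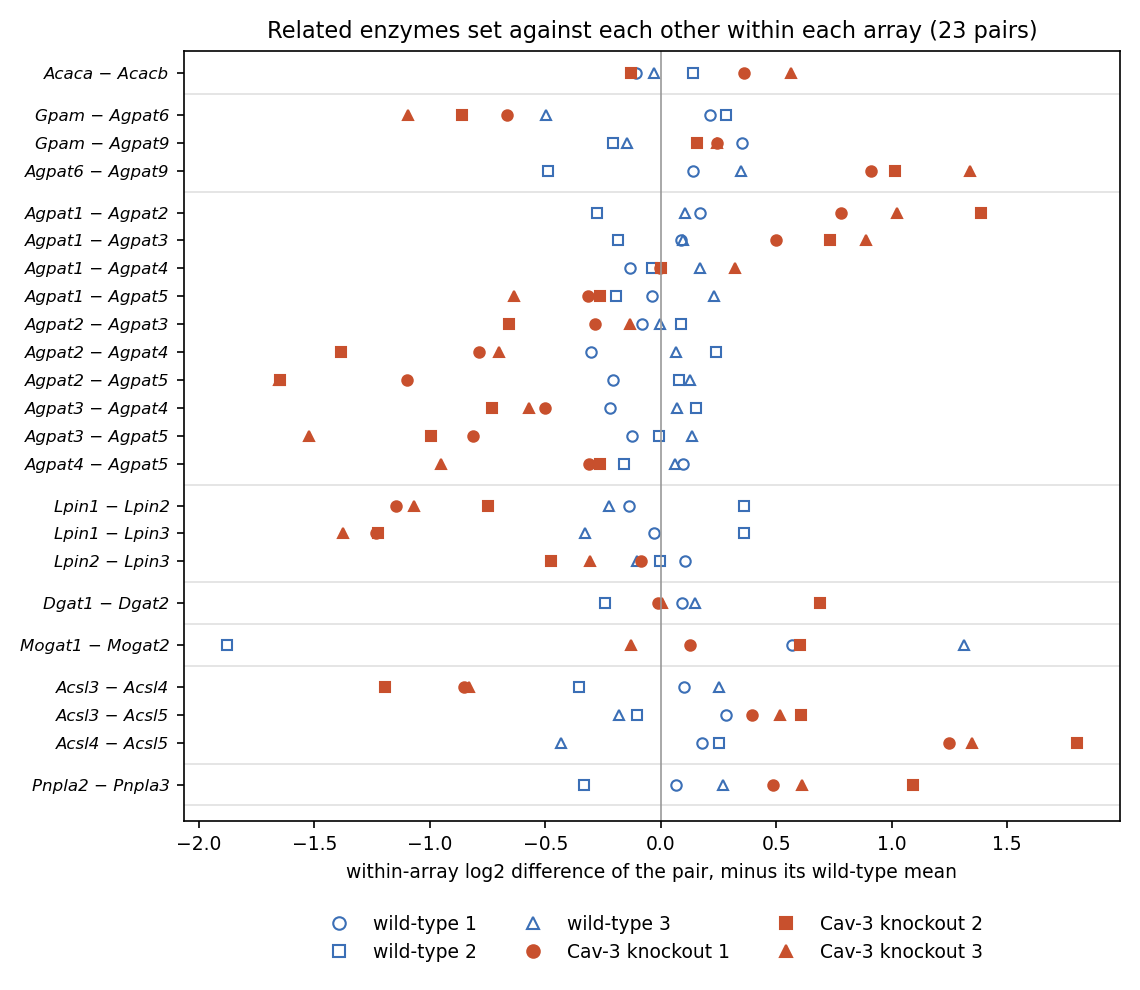
Difference in log2 value between 2 related enzymes on the same array, minus the WT mean of that difference (x axis), for each of 23 pairs (y axis), with open blue symbols for WT and filled red for Cav-3KO arrays. The genotypes lie apart for Lpin1 minus Lpin2 (means 3.78 and 2.79 before the WT mean is taken off) and overlap for Dgat1 minus Dgat2 (means -0.98 and -0.75).

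In this step Gpd1, Agpat2, Agpat3, Agpat9, Lpin1, Dgat1, Mogat1 and Acsl4 passed with each array left out. Gpam lost its call without Cav-3KO array 1 or 3 or WT array 1 or 2 (adjusted p 0.0587 to 0.0821), and Dgat2 without WT array 2 (0.0544). A dimmer Gpam set also passed as lower in limma with every array kept (-0.95, adjusted p = 0.00507).

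Of the droplet proteins, Cidec (Fsp27), which lets droplets fuse and enlarge in white fat, read 11.07, 10.92 and 10.91 in WT and 10.38, 10.37 and 10.10 in Cav-3KO glands, 1.6-fold lower (-0.68 ± 0.11, adjusted p = 0.00832). It passed with each array left out. Plin4, a perilipin that coats small droplets, read 12.59, 12.52 and 13.00 against 12.49, 12.26 and 12.10. The groups did not overlap, by a narrow gap, and the difference of -0.42 ± 0.16 did not pass (adjusted p = 0.127). With the mean of the muscle markers as a covariate it was -0.62 and passed (adjusted p = 0.016). With the brown or white adipocyte mean it was 0.19 or 0.14, turned in sign and not passed.

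The lipases fell alongside the enzymes of synthesis. Pnpla2 (ATGL), which takes the first fatty acid from triglyceride, read 13.15, 13.16 and 13.38 in WT and 12.82, 12.60 and 12.47 in Cav-3KO glands, 1.51-fold lower (-0.60 ± 0.12, adjusted p = 0.018). Lipe (hormone-sensitive lipase), which takes the next, read 10.86, 10.64 and 11.24 against 10.30, 9.97 and 9.94, 1.79-fold lower (-0.84 ± 0.17, adjusted p = 0.019). A dimmer Lipe set differed by 0.04 (adjusted p = 0.818). Mgll, which takes the last and also breaks down an endocannabinoid, read 12.06, 12.24 and 12.64 against 11.63, 11.36 and 11.44, 1.79-fold lower (-0.84 ± 0.15, adjusted p = 0.0143). Each of the 3 successive lipases passed as lower, and each difference shrank with an adipocyte mean as covariate. With the brown and the white mean it was -0.29 ± 0.24 and -0.24 ± 0.18 (SE) for Pnpla2. For Lipe it was -0.16 ± 0.26 and -0.17 ± 0.18, and for Mgll -0.26 ± 0.26 and -0.30 ± 0.21. None of them passed, nor did any other member, with covariates that shared most of the genotype term. The differences of Fasn, Acss2 and Acsl4 also shrank with the white mean. Pnpla3 (adiponutrin), a relative of ATGL that rises with feeding, had the largest difference of the step: 12.14, 12.55 and 12.16 against 11.39, 10.57 and 10.92, 2.51-fold lower (-1.33 ± 0.21, adjusted p = 0.00826).

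The proteins that switch ATGL on and off did not pass. Abhd5 (CGI-58), its activator, read 11.02, 11.25 and 10.98 in WT and 10.69, 11.47 and 10.59 in Cav-3KO glands, a difference of -0.17 ± 0.22 (adjusted p = 0.693). Cav-3KO array 2 lay above all WT arrays, and without it the difference was -0.44 and passed (adjusted p = 0.0484). G0s2, its inhibitor, read 11.60, 12.95 and 12.32 against 11.83, 12.61 and 12.41. The difference was -0.01 ± 0.33 with an interval of -0.78 to 0.77, wide enough to hold a fall as large as that of ATGL. Pnpla3 passed with each array left out. Mgll and Lipe lost their calls without Cav-3KO array 3 (adjusted p = 0.0577 and 0.0753), Lipe also without WT array 1 (0.0518), and Pnpla2 without Cav-3KO array 3 or WT array 3 (0.0659 and 0.0647).

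The uptake genes had the step median nearest 0. Lpl, the lipase that frees fatty acids from circulating lipoproteins, read 13.74, 13.75 and 13.82 in WT and 13.42, 13.51 and 13.37 in Cav-3KO glands, 1.26-fold lower (-0.33 ± 0.08, adjusted p = 0.0409). With single arrays left out it passed only without Cav-3KO array 2, and its adjusted p was otherwise 0.0897 to 0.129. A dimmer Lpl set, which does not enter the step median, differed by -0.54 and passed in limma with every array kept (adjusted p = 0.0325). Cd36, the fatty acid translocase, read 11.52, 11.54 and 11.86 against 11.24, 11.48 and 10.99, a difference of -0.40 ± 0.15 that did not pass (adjusted p = 0.125).

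Array 2 of each genotype marked the extremes of the synthesis genes. WT array 2 held the highest WT value in 11 of 11 of them, and Cav-3KO array 2 the lowest Cav-3KO value in 9 of 11. In esterification WT array 2 was highest of its group in 10 of 20 genes, against 4 and 6 for WT arrays 1 and 3, and Cav-3KO array 2 lowest in 7 of 20. For lipolysis, droplet and uptake genes WT array 2 was highest in 3 of 6, 0 of 2 and 0 of 2. Without both arrays, a choice made after the values were seen, the synthesis median was -0.57 in place of -0.85, the median over all 41 genes was -0.57, and 19 genes fell and 1 rose. WT array 2 was also the array with the highest skeletal muscle mean, and with the muscle mean as covariate 18 genes fell and 1 rose. Cav-3KO array 2 held the middle muscle mean of its group. The part of muscle tissue in the array order was not tested.

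**Figure D4:**
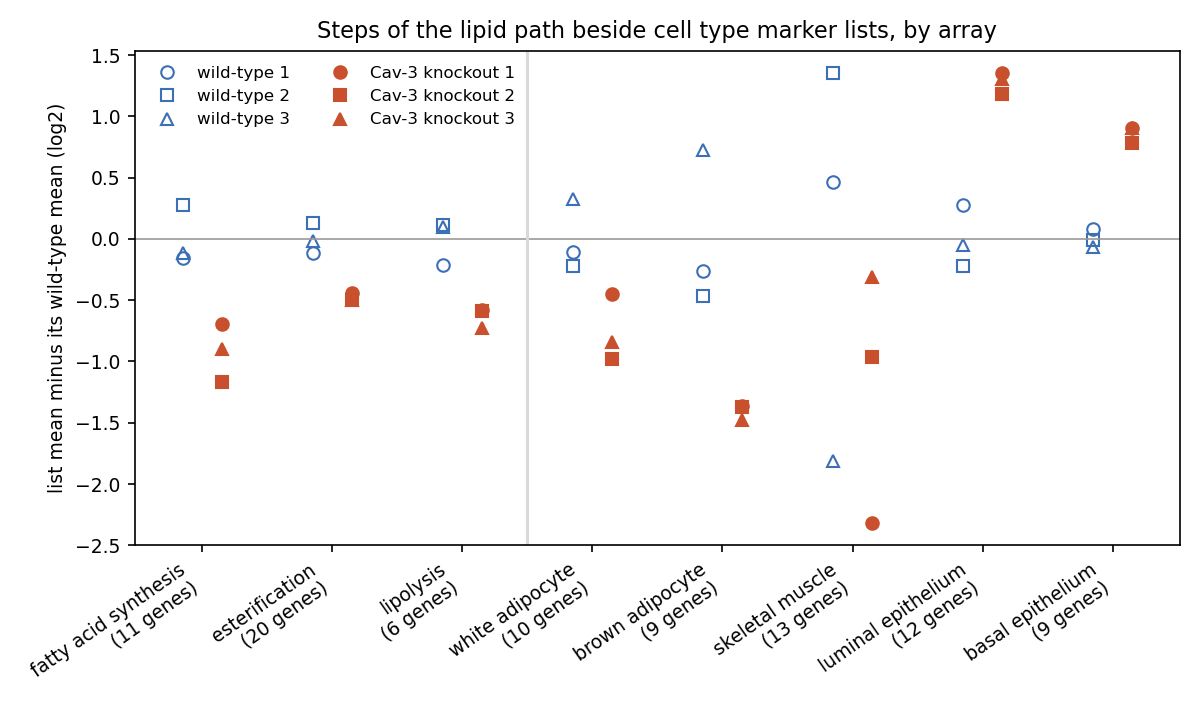
Mean log2 value over the genes of 3 steps and 5 cell type lists (x axis) on each array, minus the WT mean of that list (y axis), with open blue symbols for WT and filled red for Cav-3KO arrays. Before the WT mean is taken off, the synthesis mean is 12.65 to 13.08 in WT and 11.64 to 12.11 in Cav-3KO, the white adipocyte mean is also lower in Cav-3KO, and the luminal mean is higher.

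Further probe sets of the same genes were read next. Of the 87 probe sets, 41 were lower and 3 higher, against 6.57% and 5.74% of all tested probe sets. Of 16 genes that fell and had several sets, 13 had at least 1 other set that fell and 8 had every other set fall. The exceptions were Acacb, Dgat1 and Lipe. No gene had sets that passed in opposite directions. On the second brightest set, which 26 genes had, 12 fell and the median was -0.44.

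A list of 56 neighbouring pathway genes gave context, of which 51 were measured: 17 fell (33.3%, against 8.51% of all genes) and 4 rose (7.84%, against 7.65%), with a median of -0.33. The share that rose was near that of all genes, so the 4 are given as values only. The 3 with the lowest differences sit beside steps described above. Plin5, a perilipin that ties droplets to mitochondria, read 9.41, 10.05 and 10.47 in WT and 8.26, 8.07 and 7.99 in Cav-3KO glands, 3.66-fold lower (-1.87 ± 0.24, adjusted p = 0.00417). Mid1ip1, a partner and relative of Thrsp, read 10.92, 11.58 and 10.29 against 9.53, 8.76 and 9.24, 3.38-fold lower (-1.76 ± 0.32, adjusted p = 0.0136). Gpd2, the mitochondrial counterpart of Gpd1, read 11.51, 11.89 and 11.89 against 10.34, 10.30 and 10.30, 2.73-fold lower (-1.45 ± 0.12, adjusted p = 0.00103).

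Of the 4 that rose, Angptl4, a secreted inhibitor of Lpl, had the largest difference: 9.59, 9.69 and 10.47 in WT and 11.04, 11.27 and 11.10 in Cav-3KO glands, 2.32-fold higher (1.22 ± 0.22, adjusted p = 0.013). Lpl itself fell, by a call that was lost in most fits with an array left out, and a link between them was not tested. Acss1, the mitochondrial acetate enzyme, rose by 0.52 where its cytosolic counterpart Acss2 fell. Slc27a3, an acyl-CoA synthetase of the transporter family, rose by 0.54, and Scap, the escort of the SREBP proteins, by 0.45. Without Cav-3KO array 3, WT array 2 or WT array 3 the number that rose was 0, 1 and 1, and the number that fell was 12, 15 and 15. At an unadjusted p under 0.05, 5 were higher in limma without Cav-3KO array 3.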

How the data were processed

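RNA from 6 mammary glands, 3 WT and 3 Cav-3KO, was measured on single-channel arrays. The authors deposited log2 signals, 1 per probe set and array, for which the submitters' processing notes name RMA; its version is not given in the sources used here. RMA subtracts background, quantile normalizes the arrays and summarises each set's probes, so a shift shared by most transcripts would be removed and changes of dim sets are understated. The number of arrays limits the precision.

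Of 45101 probe sets, 64 controls were left out. The platform annotation named 34945 of the 45037 tested sets with 1 symbol; 932 had several and 9160 are unnamed here. Symbols were updated through RefSeq (GRCm38.p6), which also gave the promoters. All sets were fitted with limma 3.58.1 in R 4.3.3 (lmFit, eBayes, genotype only, two-sided, 4 residual degrees of freedom) and adjusted by Benjamini-Hochberg over all of them, with a threshold of 0.05. On simulated arrays, 3 against 3, the fit recovered 7 of 50 changes of -0.5 and 48 of 50 of -1. Far fewer sets were changed in the simulation than were called in these data. A gene that did not pass may therefore still differ. Exact permutation tests used SciPy 1.17.1, and figures matplotlib 3.10.9. The named genes are all 44 members, plus the 3 highest and 3 lowest neighbouring pathway genes past the threshold; Scap, the fourth that rose, and the marker genes were named beyond that rule after their values were seen.

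The members, lists and tests were chosen with earlier results of these data known. Alternatives are given in the closing section; leaving out both arrays numbered 2 was chosen after seeing the data.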

Additional observations from a re-analysis of the deposited data

How the results depend on the processing

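Thresholds, normalization, filters, variance priors, probe set choices and covariates were varied. Quantile normalization, cyclic loess, median centring, array weights, another prior and the filter on dim sets were each tried. Under each, the counts of genes that fell or rose stayed within 1.5 times those given. Single calls were lost in limma: Acss2 and Slc25a1 with the other prior (adjusted p = 0.0522 and 0.0664) and Lpl with cyclic loess (0.0601). Acly and Dgat1 lost theirs without sets that may match several transcripts (0.0586 and 0.939), and Acly with the mean of a gene's sets (0.0631). At an adjusted p under 0.01, 11 members fell, 8 neighbouring pathway genes fell and 0 rose (7 at an unadjusted p under 0.05 in limma), with 421 genes lower and 446 higher over the array. Under 0.1, 2 members rose and 2152 genes did. The second brightest probe sets gave 12 members lower, a median of -0.44, and 0.038 for Lipe. With the white adipocyte mean as covariate 0 members and 0 neighbouring genes fell or rose, and 3 genes fell and 9 rose over the array. The brown adipocyte mean gave 0, 0, 5 and 1. At an unadjusted p under 0.05 in limma, 13 neighbouring genes were lower and 1 higher with the white mean, and 11 and 2 with the brown. The share of all genes at that unadjusted p is not given here. With the muscle mean 2 neighbouring genes rose.

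With single arrays left out, 14 to 23 members fell, 1 to 2 rose, 12 to 17 neighbouring genes fell and 0 to 5 rose, and over the array 606 to 1463 genes fell and 629 to 1718 rose. The members' median lay between -0.75 and -0.65. Without both arrays numbered 2 it was -0.57 and 0 neighbouring genes rose (6 at an unadjusted p under 0.05 in limma). The cause of these shifts was not tested, and each of these fits also held fewer samples.

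Direction turned only for members that did not pass, apart from the Lipe set above. With the brown mean the differences were 0.20 for Acsl5, 0.036 for Agpat1, -0.065 for Agpat5, 0.059 for Cd36 and 0.19 for Plin4. With the white mean they were -0.037 for Agpat5, 0.19 for Lpin2 and 0.14 for Plin4. G0s2 was 0.091 with array weights, 0.00090 with cyclic loess, 0.0023 with median centring, 0.019 with quantile normalization and 0.19 with the muscle mean, and -0.35 to 0.32 with single arrays left out. Pck1 was -0.18 with the muscle mean. Single arrays left out gave -0.0063 to 0.18 for Acsl3, -0.039 to 0.18 for Agpat6 and -0.13 to 0.089 for Lpin2, and Pck1 reached 0.80 without WT array 3. Without both arrays numbered 2, Acsl3 was -0.026, Agpat6 -0.13, G0s2 0.16, Lpin2 0.013 and Pck1 -0.039.

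The replicate number as a block gave 21 members lower and 1 higher; Fasn, Acly, Slc25a1 and Lpl did not pass (adjusted p 0.0637 to 0.0816). Deviations of same-numbered arrays correlated at -0.05, 0.19 and -0.02, and those of differently numbered arrays at -0.19 to 0.26. With so few arrays these values cannot decide whether the numbers pair the samples.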
